A study of Mus musculus with 2 samples.

Results

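Somatotropes are the growth hormone cells of the anterior pituitary. Those described here are the cells with the most RNA from 8 stress and immediate early genes in a droplet RNA-sequencing study of dispersed mouse pituitary. They number 709 barcodes among 7090 somatotropes and 13663 barcodes in all. The glands came from individually housed male C57BL/6 mice aged 7 weeks, were pooled in sets of 3, and were digested for 4 h with collagenase and trypsin before 10x Genomics capture, which gave 2 libraries. The labels name no treatment and 1 strain, sex and age, so there is no second condition. Every barcode compared here went through the digestion, so what was present in the gland and what arose during dispersal cannot be told apart.

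A barcode was taken as a somatotrope when it had at least 250 genes, at most 20% mitochondrial UMIs (unique molecular identifiers, 1 per transcript captured at its 3′ end, so that levels are not scaled by gene length), more than 30% of its UMIs from Gh, which encodes growth hormone, under 10% from Prl, under 1% each from Pomc and Cga, and fewer than 10 UMIs from Tshb. This gave 3551 somatotropes in library 1 and 3539 in library 2. Within each library they were ranked by the share of their non-Gh UMIs that came from Fos, Fosb, Junb, Egr1, Atf3, Dnajb1, Hspa1a and Hspa1b together. The top 10% held 355 barcodes in library 1 and 354 in library 2, and was compared with the lower 50%, which held 1776 and 1770. A middle 40%, 1420 and 1415 barcodes, lies between them.

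Immediate early genes are transcribed within minutes of a stimulus, without new protein synthesis. Fos, Fosb and Junb encode subunits of the transcription factor AP-1, Egr1 a zinc finger factor and Atf3 a stress-induced factor of the ATF family, and many of their early companions encode phosphatases and RNA-destabilizing proteins that shut the response off. The heat shock response is a separate programme: heat shock factor 1 raises transcription of chaperones when proteins unfold, and Hspa1a and Hspa1b encode the inducible Hsp70 while Dnajb1 encodes its Hsp40 partner. In somatotropes, growth hormone-releasing hormone acts through its receptor Ghrhr, Gs and cyclic AMP, a route that can itself induce Fos. Enzymatic dispersal of tissue is known to induce both programmes.

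Although Fos and its relatives head the markers that name these cells, most of the ranking score came from the heat shock genes. Among the top 10%, Dnajb1, Hspa1a and Hspa1b supplied 76.8% of the UMIs of the 8 genes in library 1 and 70.4% in library 2, and Hspa1a alone supplied 47.7% and 39.5%. The median barcode of the top 10% had a score of 3.25% in library 1 and 3.12% in library 2. The median of the lower 50% was 0.0952% and 0.162%. The score has no gap at the limit. In library 1 the lowest score inside was 2.249% and the highest outside 2.246%, and in library 2 they were 2.335% and 2.330%. The highest score within the lower 50% was 0.281% and 0.429%. No UMI of the 8 genes was found in 128 somatotropes of library 1 and in 33 of library 2.

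The levels of the 8 genes set the ranking and are given as a description, in UMIs per 1000000 UMIs without Gh and without the 8 genes. Fos was at 4379 and 5400 in the top 10% (libraries 1 and 2), at 589 and 1142 in the middle 40%, and at 90.7 and 151 in the lower 50%. Dnajb1 was at 8389 and 8643, 1260 and 2007, and 147 and 286. Hspa1a was at 17323 and 13720, 5406 and 5362, and 624 and 978. In all 3 genes the bands do not overlap, and all 3 are part of the score that set the bands. Library 2 was the higher library in the lower 50%. Egr1 was at 1228 and 1771 in the top 10% and Junb at 1898 and 2065. Atf3 at 617 and 676 and Fosb at 321 and 394 were the least abundant of the 8. When barcodes were ranked on a random part of their UMIs and the genes read in the remaining UMIs, the top 10% stood 37.1-fold above the lower 50% in Fos, against 41.5-fold in all UMIs. For Hspa1a the 2 values were 17.5-fold and 19.7-fold. A total of 336 of 355 and 333 of 354 barcodes were in the top 10% in that ranking too. The random part is drawn from the UMIs of the full score, so this overlap is largely built in and supports nothing.

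**Figure D1:**
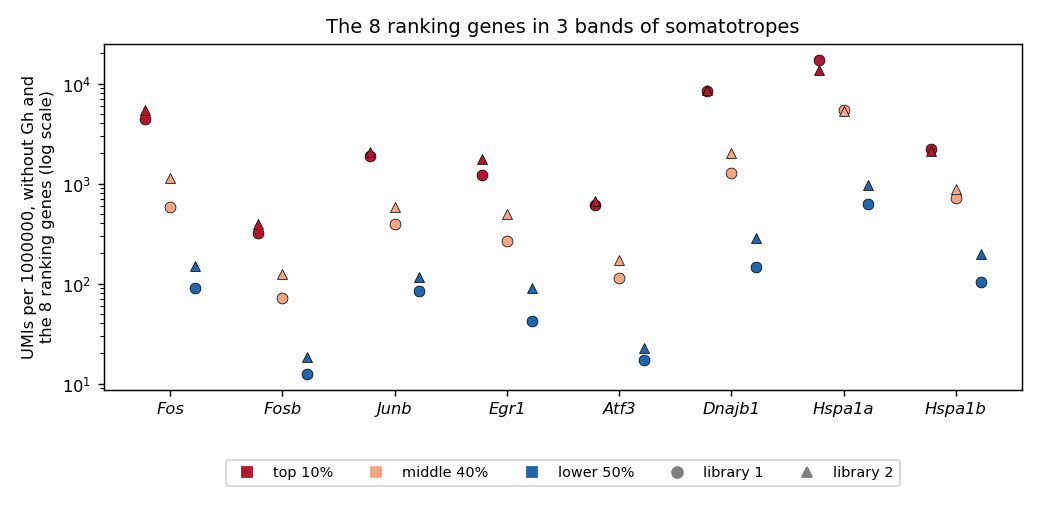
Level of each of the 8 ranking genes, in UMIs per 1000000 on a log axis, in the top 10%, middle 40% and lower 50% of somatotropes; each point is the sum over the barcodes of 1 band in 1 library. Hspa1a is the most abundant in every band, at 17323 and 13720 per 1000000 in the top 10%.

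Hspa1a and Hspa1b are neighbouring, nearly identical genes, and reads can be shared between them, so the split of UMIs between the 2 is uncertain. Their promoters show how close the copies are. In the RefSeq tables (GRCm38.p6), 247 of the 250 bases before the start were the same, or 98.8%. The 160 bases before each start are printed because these 2 genes carry the largest part of the score.

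The sequences read 5′ to 3′ on the strand of the gene.
Hspa1a (chr17:34972157-34972316, - strand): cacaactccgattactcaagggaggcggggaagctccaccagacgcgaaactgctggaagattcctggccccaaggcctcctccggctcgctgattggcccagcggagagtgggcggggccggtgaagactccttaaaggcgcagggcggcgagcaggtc
Hspa1b (chr17:34959239-34959398, - strand): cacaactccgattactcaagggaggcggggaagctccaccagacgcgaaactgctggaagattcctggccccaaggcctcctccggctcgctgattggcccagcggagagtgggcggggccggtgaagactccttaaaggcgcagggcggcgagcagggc

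The immediate early and heat shock shares went together across somatotropes but not within the top 10%. Across all somatotropes of a library, the Spearman correlation between the share of the 5 immediate early genes and that of the 3 heat shock genes was 0.58 in library 1 (n = 3551 barcodes) and 0.62 in library 2 (n = 3539). Within the top 10% it was 0.015 and -0.21. These are descriptions. The 2 shares have the same denominator in each barcode, and the top 10% is cut on their sum. Of the top 10%, 245 of 355 and 240 of 354 were also in the top 10% by the 5 immediate early genes alone, 318 and 294 were in it by the 3 heat shock genes alone, and 208 and 180 by both. In each library, 7 barcodes were in the lower 50% by the immediate early genes alone.

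**Figure D2:**
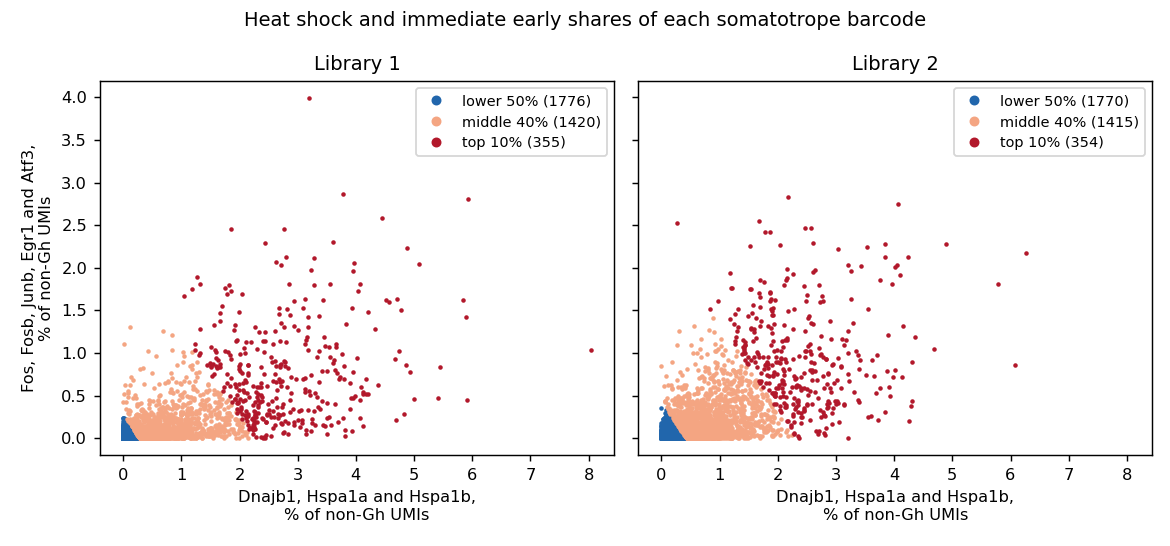
Share of non-Gh UMIs from the 5 immediate early genes against the share from the 3 heat shock genes, 1 point per somatotrope barcode, by library; the band is set by the sum of both axes. The top 10% spreads from barcodes with almost only heat shock RNA to barcodes with up to 3.99% immediate early RNA.

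Each programme was therefore read in barcodes chosen by the other, which uses no gene to choose what it reads. The raw counts of each band were summed within each library. Bands were compared by the quasi-likelihood test of edgeR, with library as a block and p-values adjusted over all genes (Benjamini-Hochberg). From here levels are in CPM, counts per 1000000 of a TMM-scaled total without Gh and without the ranking genes of that fit. With barcodes chosen by the 5 immediate early genes, Dnajb1 was at 7311 and 7630 CPM in the top 10% and at 210 and 372 in the lower 50%. The bands did not overlap, and the log2 fold change was 4.73 ± 0.30 (SE), adjusted p = 0.0188. Hspa1a was at 13012 and 10194 against 1643 and 1867, with a log2 fold change of 2.72 ± 0.19 and an adjusted p of 0.0230. Hspa1b followed with 3.00 ± 0.20 and 0.0200. In this fit, 9.57% of the 12913 genes tested were higher.

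In the reverse reading, with barcodes chosen by the 3 heat shock genes, Fos was at 3901 and 4583 CPM in the top 10% and at 115 and 241 in the lower 50%, a log2 fold change of 4.65 ± 0.33 (adjusted p = 0.0299). Atf3 was at 538 and 585 against 26.2 and 33.7 (4.23 ± 0.12, adjusted p = 1.1e-06). Both libraries gave non-overlapping bands. Egr1, with 4.05 ± 0.28, and Junb, with 3.52 ± 0.26, also passed, at adjusted p = 0.0281 and 0.0314. Fosb, at 298 in each library against 21.5 and 32.2, did not pass in this fit (3.49 ± 0.40, adjusted p = 0.0604). Here 8.03% of the 12871 genes tested were higher. Without the library block Fos and Egr1 no longer passed (adjusted p = 0.0595 and 0.0878), while Fosb did (0.0482).

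With the barcodes ranked by all 8 genes and those genes and Gh left out of totals and tests, 12866 genes were tested. Higher in the top 10% were 1285 genes, or 9.99%, and lower were 953, or 7.41%. A change of at least 2-fold was reached by 401 genes that were higher (3.12%) and by 156 that were lower (1.21%). The split depends on the scaling: 939 higher and 1748 lower without TMM factors, where the median of all genes lay at -0.11 on the log2 scale against -0.01, and 668 and 229 with DESeq2 and its size factors. Genes at least 1.5-fold apart in both libraries were also counted with no test, at 50 CPM or more. For this count the CPM had no TMM factor. It gave 184 of 3198 genes higher (5.75%) and 40 lower (1.25%). With 2 pools per band, the fit had 2 residual degrees of freedom, and its common biological variation was 0.0323 (as a coefficient). A p-value here measures only how well the 2 pools repeat a difference between bands, against a variation partly borrowed from other genes. The smallest p-values therefore do not rest on the 2 pools of that gene alone.

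**Figure D3:**
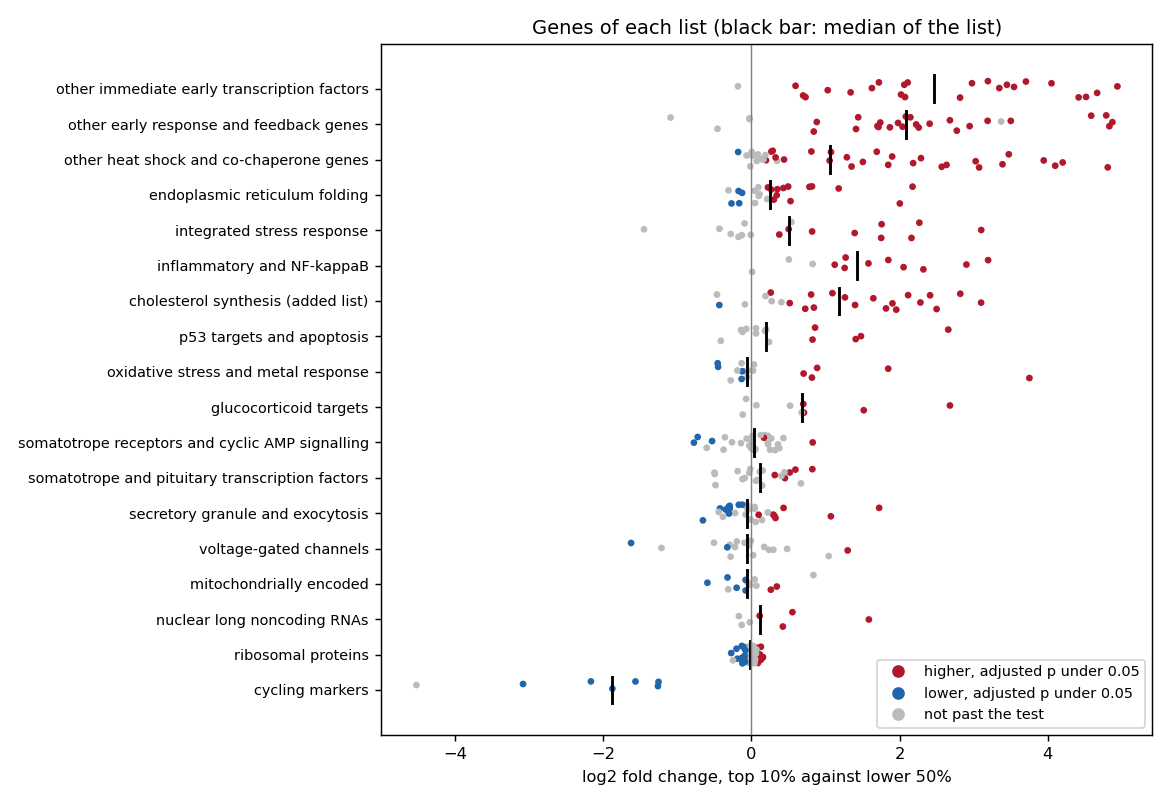
Log2 fold change of the top 10% against the lower 50% for each tested gene of 18 lists, coloured by edgeR's quasi-likelihood test at an adjusted p of 0.05; black bars are medians. Immediate early, feedback and heat shock genes lie to the right (medians 2.46, 2.08 and 1.07), receptors and ribosomal proteins around 0 and cycling markers to the left (-1.87).

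Other immediate early transcription factors were higher almost without exception. Of 24 measured that were not used in the ranking, 23 were higher (95.8%, against 9.99% of all genes) and none was lower. Their median log2 fold change was 2.46 against -0.01 over all genes. Jun, the AP-1 partner of Fos, was the most abundant, at 4788 and 5610 CPM in the top 10% and 134 and 300 in the lower 50%. Both top bands lie far above both lower ones, and the fold change was 25.4 (log2 4.67 ± 0.35, adjusted p = 0.0262). That call was lost without the library block (adjusted p = 0.0521) and with only these 4 sums in the fit (0.170). Npas4, an activity-induced factor best known from neurons, was at 366 and 393 against 13.7 and 19.5, a log2 change of 4.52 ± 0.10 (adjusted p = 8.64e-19). Ier2, a small immediate early nuclear protein, was at 852 and 1036 against 46.5 and 68.3 (4.05 ± 0.06, adjusted p = 8.85e-22). For these genes the middle 40% lay between the bands in each library.

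The nuclear orphan receptor Nr4a1 was at 485 and 566 against 32.7 and 65.0 (log2 3.45 ± 0.25, adjusted p = 0.0233), which was not called with only the 4 sums (0.131). Its relative Nr4a2 rose far less, from 24.95 and 43.9 to 49.2 and 62.6 (0.70 ± 0.13, adjusted p = 8.27e-05, 0.409 without the block). Among Krüppel-like factors, Klf6 rose by 2.82 ± 0.07, Klf2 by 3.35 ± 0.15 and Klf4 by 2.98 ± 0.17 on the log2 scale. The call for Klf4 was lost without the block (adjusted p = 0.124). Csrnp1, a cysteine- and serine-rich nuclear protein, was at 99.6 and 126 against 8.82 and 10.5 (3.54 ± 0.13). Jund, which is expressed constitutively, still rose by 2.06 ± 0.08 (adjusted p = 0.000266, but 0.0910 without the block). Fosl1 and Egr4 were rare, at no more than 15.8 CPM in any band. The member not called was Crem, whose product includes the cyclic AMP repressor ICER. It was at 132 and 157 in the top 10% and 142 and 185 in the lower 50%, bands that overlap (-0.18 ± 0.07, adjusted p = 0.0694). It was called lower in 4 of the alternatives, with adjusted p of 0.0026 without TMM factors and 0.0145 with barcodes ranked by the immediate early genes alone.

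Of 29 other early response and feedback genes, 24 were higher (82.8%, against 9.99% of all genes) and none lower. Their median log2 fold change was 2.08. Cyr61, a secreted matrix protein induced by serum and by YAP, had the largest change of the genes named by rule, from 23.3 and 39.3 to 780 and 1031 CPM (4.87 ± 0.21, adjusted p = 0.00754). Arc, an immediate early gene of synaptic plasticity, was at 212 and 315 against 5.27 and 13.8 (4.79 ± 0.12, adjusted p = 3.36e-22). Zfp36, which encodes tristetraprolin and destabilizes AU-rich messages, was at 372 and 498 against 16.1 and 20.1 (4.59 ± 0.08, adjusted p = 7.54e-37). The bands of these 3 genes are separated in both libraries. The phosphatase genes Dusp1 and Dusp5, whose products switch off MAP kinases, rose by 3.50 ± 0.07 and 4.83 ± 0.33. Dusp1 was abundant, at 676 and 985 against 54.6 and 93.5, and its call was lost without the block (adjusted p = 0.0651). Dusp5 was not abundant, at 29.0 and 28.0 against 1.08 and 0.902.

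The antiproliferative gene Btg2 was at 1738 and 1820 CPM against 167 and 228 (log2 3.19 ± 0.21, adjusted p = 0.0208, and 0.0530 with barcodes ranked by the heat shock genes alone). Ppp1r15a, the stress-induced subunit that dephosphorylates eIF2alpha, was at 326 and 318 against 36.1 and 47.6 (2.95 ± 0.10, adjusted p = 8.96e-12). Gadd45g and the cytokine feedback gene Socs3 rose by 2.22 ± 0.06 and 2.41 ± 0.13, Errfi1, an inhibitor of the EGF receptor, by 2.68 ± 0.12, and the clock gene Per1 by 1.87 ± 0.11. Phlda1, at 231 and 327 against 18.6 and 29.97, and the clock-controlled repressor Ciart, at 95.2 and 78.7 against 7.10 and 7.52, were named by their fold and stand in no list (log2 3.52 ± 0.08 and 3.56 ± 0.15). Gadd45b was at 209 and 120 against 12.5 and 18.7, and with libraries this far apart it did not pass (3.37 ± 0.46, adjusted p = 0.0696). It passed without the block (0.00371) and by DESeq2 (1.23e-10). The other members not called, Homer1, Dusp6, Zfp36l1 and Ctgf, were rare, with Homer1 the most abundant at 11.4 and 8.94 in the top 10%.

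Promoters of the early response genes are shown because 6 of the 16 that rose at least 2-fold and have a window (37.5%) hold the full cyclic AMP response element TGACGTCA between 250 bases before and 50 after a start: Arl4d, Btg2, Dusp1, Errfi1, Plk2 and Ppp1r15a. The share was 3.86% of the 9657 tested genes with a window and 2.03% of all 27025 genes with one. It was 10.6% of the 292 genes with a window that rose at least 2-fold. Among the immediate early transcription factors that rose at least 2-fold it was 1 of 16 (6.25%, Maff). Windows were searched on both strands for 5 motifs, which were TGACGTCA, the AP-1 site TGANTCA, the heat shock element (units GAA, TTC and GAA in this order, with 2 bases between them), the sterol regulatory element and the CArG box bound by serum response factor. The same 16 early response genes held no AP-1 site. A CArG box was in 2 of them (12.5%, Dusp5 and Zfp36), against 1.59% of the tested genes with a window. None of the 7 ranking genes with a window held any of the 5. Only exact letters within these windows were counted, so near matches and sites farther away were missed, and a gene with no match may still hold such a site. A match is a description of letters and not of binding.

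The following 160 bases before a start, from RefSeq (GRCm38.p6), read 5′ to 3′ on the strand of the gene. Capitals mark the cyclic AMP response element in Dusp1, Ppp1r15a and Plk2, and the CArG box in Zfp36 and Dusp5, where 2 boxes adjoin.
Dusp1 (chr17:26508473-26508632, - strand): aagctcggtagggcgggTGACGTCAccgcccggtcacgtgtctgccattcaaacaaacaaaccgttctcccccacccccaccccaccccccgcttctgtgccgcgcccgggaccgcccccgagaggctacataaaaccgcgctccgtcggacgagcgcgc
Ppp1r15a (chr7:45526269-45526428, - strand): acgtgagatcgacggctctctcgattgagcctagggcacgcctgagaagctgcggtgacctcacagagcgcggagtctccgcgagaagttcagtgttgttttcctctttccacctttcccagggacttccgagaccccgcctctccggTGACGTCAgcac
Plk2 (chr13:110394884-110395043, + strand): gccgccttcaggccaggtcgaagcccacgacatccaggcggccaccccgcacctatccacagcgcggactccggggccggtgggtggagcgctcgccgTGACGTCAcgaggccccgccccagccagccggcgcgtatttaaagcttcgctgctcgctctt
Zfp36 (chr7:28379229-28379388, - strand): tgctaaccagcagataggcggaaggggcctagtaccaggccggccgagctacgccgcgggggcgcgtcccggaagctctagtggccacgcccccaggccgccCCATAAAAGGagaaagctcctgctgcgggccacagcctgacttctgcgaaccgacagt
Dusp5 (chr19:53528985-53529144, + strand): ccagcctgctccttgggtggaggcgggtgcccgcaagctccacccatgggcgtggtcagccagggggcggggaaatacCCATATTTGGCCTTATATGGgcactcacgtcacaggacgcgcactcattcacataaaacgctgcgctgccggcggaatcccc

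Of 38 heat shock and co-chaperone genes outside the ranking, 26 were higher in the top 10% (68.4%, against 9.99% of all genes). In this list 1 gene was lower (2.63%, against 7.41%), 20 were at least 2-fold higher and the median log2 fold change was 1.07. Serpinh1, the collagen chaperone Hsp47 of the endoplasmic reticulum, was at 1916 and 2632 CPM in the top 10% against 67.0 and 96.0 (4.81 ± 0.06, adjusted p = 1.43e-16). Bag3, an Hsp70 co-chaperone of selective autophagy, was at 418 and 508 against 23.0 and 27.4 (18.4-fold, adjusted p = 7.54e-37). Dnaja4, an Hsp40 protein, was at 824 and 970 against 47.8 and 57.0 (4.10 ± 0.07, adjusted p = 9.21e-22). The small heat shock gene Hspb1 was at 1309 and 1296 against 104 and 132 (3.47 ± 0.12, adjusted p = 0.00087, and 0.0521 with barcodes ranked by the immediate early genes alone). In each of these genes the middle 40% lay between the other 2 bands.

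The constitutive Hsp70 gene Hspa8 reached 7749 and 7794 CPM against 1162 and 1355 (log2 2.63 ± 0.14, adjusted p = 0.0142). Hsp90aa1, the inducible Hsp90, was at 4100 and 4675 against 456 and 593 (3.07 ± 0.13), while Hsp90ab1, the constitutive Hsp90, was at 3288 and 3370 against 871 and 913 (1.90 ± 0.04). The Hsp110 gene Hsph1 rose by 3.39 ± 0.15 and Dnaja1 by 3.03 ± 0.16, the latter not called with only the 4 sums (adjusted p = 0.101). The mitochondrial chaperonin pair Hspe1 and Hspd1 rose by 2.29 ± 0.06 and 1.85 ± 0.06. The polyubiquitin gene Ubb rose 2.84-fold and was the most abundant of the list, at 14684 and 16292 against 5378 and 5516 CPM.

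Other members of the list did not pass or changed little. Of the subunit genes of the cytosolic chaperonin, Tcp1 at 187 and 181 CPM against 191 and 181, and Cct8 at 160 and 168 against 154 and 171, had overlapping bands and log2 changes of -0.01 and 0.01. A further subunit gene, Cct3, was higher at 139 and 128 against 107 and 112 (0.29 ± 0.08, adjusted p = 0.0071), a call lost under 6 alternatives (0.154 by DESeq2). The mitochondrial Hsp70 gene Hspa9 had 0.09 ± 0.06 (adjusted p = 0.394). Hsf1, which encodes the factor that drives the heat shock genes, was at 20.2 and 24.4 against 23.7 and 23.1 (-0.06 ± 0.18). Bag1 was the 1 member that was lower, with a log2 change of -0.18 ± 0.05 (adjusted p = 0.00749), a call lost under 5 alternatives, with adjusted p up to 0.517.

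The heat shock element, read on either strand, was found in 3 of the 15 windows of these genes that rose at least 2-fold (20%), those of Hspd1, Hspe1 and Hsph1, against 0.559% of the windows of all genes tested. Hspd1 and Hspe1 are neighbours transcribed in opposite directions from a shared region. An AP-1 site was held by 2 of the 15 (13.3%), Bag3 and Ubb, against 5.95% of the tested genes with a window.

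The 2 windows below are printed as before, with capitals for 2 overlapping heat shock elements in Hspe1 and for the AP-1 site in Bag3.
Hspe1 (chr1:55087988-55088147, + strand): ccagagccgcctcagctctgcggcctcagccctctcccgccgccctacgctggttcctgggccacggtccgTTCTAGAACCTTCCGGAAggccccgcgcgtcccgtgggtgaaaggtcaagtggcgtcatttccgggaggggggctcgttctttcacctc
Bag3 (chr7:128523423-128523582, + strand): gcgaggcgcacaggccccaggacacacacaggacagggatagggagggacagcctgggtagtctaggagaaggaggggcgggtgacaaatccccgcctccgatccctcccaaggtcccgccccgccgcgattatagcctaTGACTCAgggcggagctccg

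**Figure D4:**
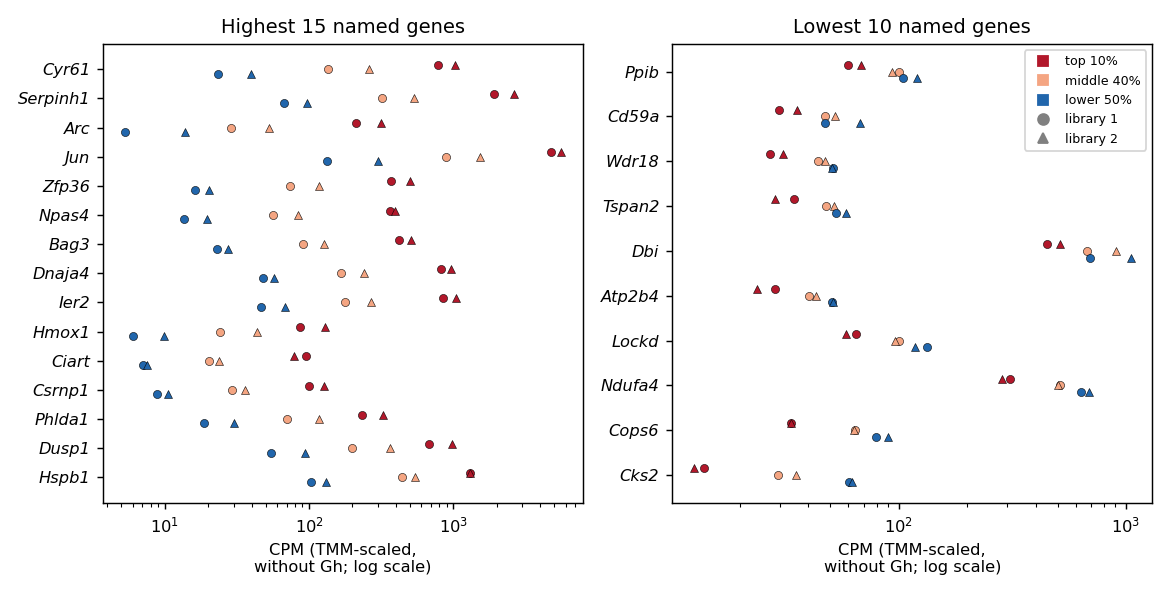
Level in CPM (log axis) of the 15 genes with the highest and the 10 with the lowest log2 fold change among those named by rule, in each band and library. Cyr61 rises from 23.3 and 39.3 to 780 and 1031, Cks2 falls from 60.6 and 62.2 to 13.9 and 12.5, and for the genes on the left the middle 40% lies between the other bands.

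Stress of the endoplasmic reticulum and the integrated stress response differed gene by gene. Of 24 folding genes of that compartment, 13 were higher (54.2%, against 9.99% of all genes) and 4 lower (16.7%, against 7.41%). Their median log2 fold change was 0.25. Hspa5, the chaperone BiP, was at 3406 and 3147 CPM against 721 and 730 (2.18 ± 0.08, adjusted p = 0.000228), and Herpud1, of the degradation pathway, at 677 and 684 against 167 and 172 (2.00 ± 0.05, adjusted p = 1.66e-32). The bands are wide apart in both. Hsp90b1 and Manf, which belong to the same programme, rose by 0.30 ± 0.04 and 0.34 ± 0.03. Those that were lower were Dnajc3, Sec61b, Ssr1 and Pdia6, with log2 changes between -0.27 and -0.12. None of these 4 was called by DESeq2, where adjusted p ran from 0.0981 to 0.565.

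The integrated stress response acts through eIF2alpha phosphorylation and Atf4. Of 17 of its genes, 9 were higher (52.9%, against 9.99% of all genes) and none lower (median 0.50). Ddit3, which encodes the factor CHOP, was at 782 and 940 CPM against 92.8 and 108 (3.10 ± 0.05, adjusted p = 2.53e-39). Atf4 was at 489 and 549 against 143 and 163 (1.76 ± 0.05, adjusted p = 2.38e-28). Chac1, a glutathione-degrading target of that pathway, rose by 2.27 ± 0.14, Ddit4, an inhibitor of mTORC1, by 2.16 ± 0.07 and the pseudokinase gene Trib3 by 1.75 ± 0.20. The amino acid synthesis target Asns did not pass, at 63.0 and 66.2 against 72.4 and 84.1 (-0.28 ± 0.10, adjusted p = 0.0533).

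Of 12 inflammatory and NF-kappaB genes, 9 were higher (75%, against 9.99% of all genes) and none lower (median 1.43). Nfkbia, the inhibitor and target of that factor, was at 301 and 281 CPM against 87.4 and 74.5 (1.85 ± 0.07, adjusted p = 2.18e-25). The deubiquitinase gene Tnfaip3 and the chemokine gene Cxcl1 rose by 3.19 ± 0.29 and 2.90 ± 0.30 from low levels, with Tnfaip3 at 24.6 and 22.1 in the top 10%. Cxcl1 was not called with the top 20% as the upper band (adjusted p = 0.191). Of 17 oxidative stress and metal genes, 5 were higher (29.4%, against 9.99% of all genes) and 4 lower (23.5%, against 7.41%). These counts were 3 and 1 without the block and 5 and 2 by DESeq2. Hmox1, inducible heme oxygenase, was at 87.0 and 128 against 6.02 and 9.92 (3.75 ± 0.14, adjusted p = 3.64e-25), and the metallothionein gene Mt1 at 2876 and 4262 against 870 and 1098 (1.85 ± 0.12, adjusted p = 0.0184). Thioredoxin, Txn1, was lower at 282 and 235 against 355 and 349 (-0.45 ± 0.05, adjusted p = 9.67e-09).

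A list of 24 cholesterol synthesis and uptake genes was drawn up after these values had been seen, so its counts describe and support nothing. Of them 18 were higher (75%, against 9.99% of all genes) and 1 lower (4.17%, against 7.41%), with a median of 1.18. Idi1, of the isoprenoid step, was at 229 and 287 CPM against 27.5 and 32.6 (3.10 ± 0.08, adjusted p = 3.11e-30). Hmgcs1 was at 212 and 279 against 41.7 and 50.4 (2.41 ± 0.08, adjusted p = 1.67e-27) and Msmo1, of a later sterol step, at 429.9 and 505 against 74.1 and 91.3 (2.50 ± 0.06, adjusted p = 7.74e-32). Each of the 3 had separate bands in both libraries. Ebp was the lower member (-0.43 ± 0.11, adjusted p = 0.00256, and 0.115 by DESeq2).

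Genes differed in which ranking gave them the larger fold change. With barcodes ranked by the 5 immediate early genes, Ddit3 had a log2 fold change of 3.67 ± 0.05, and with barcodes ranked by the 3 heat shock genes 2.61 ± 0.06. For Klf2 the values were 3.95 ± 0.14 and 2.84 ± 0.15, for the small GTPase gene Gem 3.37 ± 0.14 and 2.34 ± 0.13, and for Chac1 2.71 ± 0.14 and 1.87 ± 0.14. Some chaperone genes lay near equality or on the other side. Serpinh1 had 4.47 ± 0.14 and 4.61 ± 0.15, and Bag3 3.90 ± 0.07 and 4.01 ± 0.09. Hspa8 had 2.43 ± 0.16 and 2.54 ± 0.13. The median of the 38 heat shock and co-chaperone genes, in the same order, was 0.95 and 0.89. The 2 rankings share barcodes, and the difference between them was not tested.

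**Figure D5:**
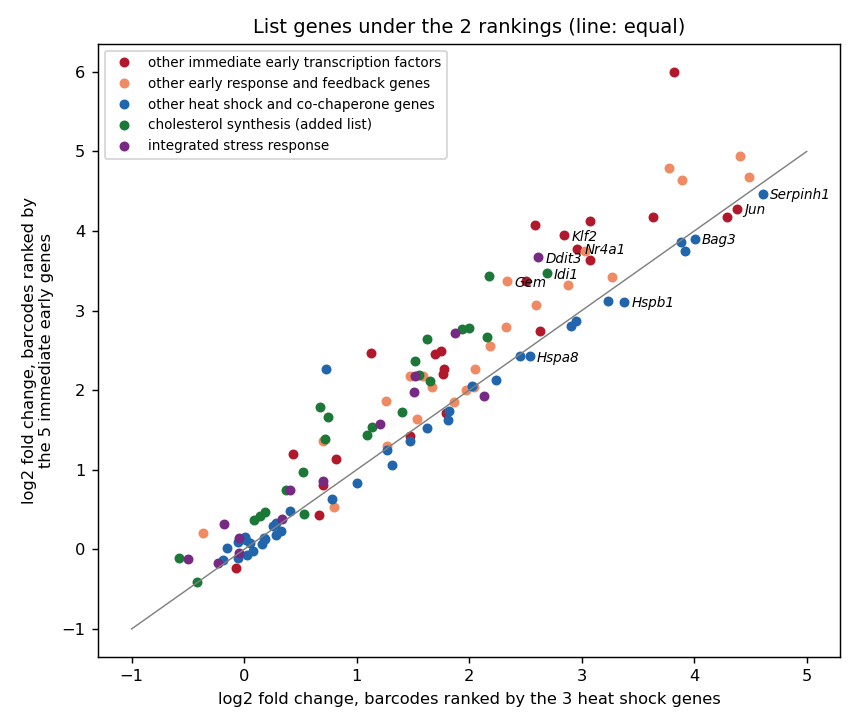
Log2 fold change of list genes at 10 CPM or more in the top 10%, with barcodes ranked by the 5 immediate early genes (vertical) against barcodes ranked by the 3 heat shock genes (horizontal). The line marks equal values; Ddit3 (3.67 and 2.61) and Klf2 (3.95 and 2.84) lie above it, Serpinh1 (4.47 and 4.61) just below.

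Growth hormone transcripts were a smaller part of the RNA in the top 10%. A barcode entered only with more than 30% of its UMIs from Gh, so the values of Gh are given as a description, with no test. The median barcode had 54.7% and 53.8% of its UMIs from Gh, against 61.7% and 60.7% in the middle 40% and 63.2% and 62.4% in the lower 50%. In UMIs, the medians were 5454 and 5673 against 8385 and 8947.5, while the medians of the other UMIs lay closer, 4706 and 5058.5 against 4981 and 5310.5. With Gh kept in the totals, its level was 530464 and 522636 CPM against 641713 and 628165, 1.21-fold lower (log2 -0.27, and -0.15 without TMM factors). In bands taken within 10 equal-sized classes of depth, counted in non-Gh UMIs, the difference was -0.26. These depth classes do not match the barcodes in total UMIs. A barcode with fewer transcripts of a gene and one with fewer transcripts in all cannot be told apart beyond these shares.

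Of the genes that define somatotropes, Ghrhr and Pou1f1 had nearly equal levels in the bands, while 1 other marker was called higher and 2 lower. Ghrhr was at 255 and 250 CPM against 268 and 240 (-0.01 ± 0.06, adjusted p = 0.944), and Pou1f1, the factor that drives Gh, at 312 and 330 against 306 and 309 (0.06 ± 0.05, adjusted p = 0.460). Bands overlap for the first gene, and the second differs by little more than its spread. Of the other somatotrope markers, Rxrg was at 138 and 124 against 118 and 92.7 (0.32 ± 0.08, adjusted p = 0.00509, and 0.118 by DESeq2), Pappa2 at 75.6 and 100.1 against 103 and 135 (-0.43 ± 0.09, adjusted p = 0.00018, and 0.239 without the block) and Ppp1r14a at 202 and 179 against 250 and 205 (-0.25 ± 0.06, adjusted p = 0.00201, and 0.166 by DESeq2). Of 31 receptor and cyclic AMP genes, 2 were higher (6.45%) and 3 lower (9.68%), with a median of 0.03, against 9.99% and 7.41% of all genes tested. Without the block, and by DESeq2, 1 was higher and none lower. Sstr5, a receptor for the inhibitory peptide somatostatin, was at 33.4 and 32.2 against 17.0 and 19.9 (0.83 ± 0.17, adjusted p = 0.000295). Sstr2, a further somatostatin receptor, was at 12.0 and 7.75 against 11.9 and 21.6 (-0.77 ± 0.27, adjusted p = 0.0399), bands that overlap, and its call was lost under 9 alternatives (0.383 by DESeq2). Gnas, which encodes Gs, was at 5537 and 5319 against 5753 and 5308 (-0.03 ± 0.02). Of 21 pituitary transcription factors 5 were higher (23.8%, against 9.99% of all genes) and none lower (median 0.11). By DESeq2 2 were higher, and without the block 1.

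Of 30 secretory granule genes, 7 were higher (23.3%, against 9.99% of all genes) and 9 lower (30%, against 7.41%). Their median was -0.06. These counts were 0 and 2 without the block, 2 and 3 by DESeq2, and 3 and 12 without TMM factors. Resp18, a granule protein of endocrine cells, was at 1305 and 1230 CPM against 1918 and 2068 (-0.65 ± 0.04, adjusted p = 3.18e-15). The neuropeptide precursor gene Vgf rose from 7.75 and 14.7 to 31.5 and 42.9 (1.72 ± 0.18, adjusted p = 3.96e-10, and 0.171 without the block). Chgb, which encodes chromogranin B, was at 1042 and 1212 against 1272 and 1815 and did not pass (-0.44 ± 0.09, adjusted p = 0.0744). It was called lower in 7 of the alternatives, with an adjusted p of 8.02e-07 by DESeq2. Of 18 voltage-gated and other ion channel genes 1 was higher (5.56%) and 2 were lower (11.1%), against 9.99% and 7.41% of all genes. Their median was -0.06, and none was called by DESeq2 or without the block.

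Genes that were lower changed less than those that were higher. Among the 10 lowest named by rule, Cks2, a subunit of cyclin-dependent kinases, went from 60.6 and 62.2 CPM to 13.9 and 12.5 (-2.22 ± 0.17, adjusted p = 8.59e-14). Cops6, of the COP9 signalosome, was at 33.4 in each library against 79.7 and 90.01 (-1.35 ± 0.12, adjusted p = 1.05e-11). Ndufa4, a respiratory chain subunit, was at 308 and 284 against 631 and 688 (-1.16 ± 0.05, adjusted p = 7.48e-21). All 3 had separate bands. Lockd, a long noncoding RNA, and the calcium pump gene Atp2b4 followed, with -1.03 ± 0.09 and -0.97 ± 0.15. Dbi, Tspan2, Wdr18, Cd59a and Ppib lay between -0.85 and -0.81. Dbi was no longer called without the block (adjusted p = 0.224) or at a mitochondrial maximum of 10% (0.0853), nor was Cd59a with the ranking by immediate early genes alone (0.125).

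Cycling markers were lower in the top 10%: 6 of 7 passed (85.7%, against 7.41% of all genes), with a median of -1.87, and none was higher. Their summed level, per 1000000 UMIs without Gh and the ranking genes and with no TMM factor, was 41.5 and 30.6 against 173 and 156 in the lower 50%, with the middle 40% at 102 and 116. Birc5, or survivin, was at 9.45 and 7.75 against 32.8 and 30.3 (-1.87 ± 0.23, adjusted p = 1.75e-08), and Top2a, topoisomerase of dividing cells, at 7.56 and 6.56 against 17.0 and 16.6 (-1.25 ± 0.27, adjusted p = 0.000569). Ube2c, at 1.89 and 1.79 against 50.3 and 35.3, was the member not called (-4.52 ± 1.18, adjusted p = 0.174). It passed in 6 of the alternatives, among them the fit without the block (0.00099).

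Markers of other cell types are given by their summed levels, in the unit used for the cycling markers. The 8 stem cell markers summed to 42.8 and 52.7 against 79.8 and 85.3 in the lower 50%, the 7 fibroblast and pericyte markers to 55.6 in each library against 100.5 and 109, the 8 macrophage and leukocyte markers to 37.3 and 18.7 against 55.8 and 42.2, and the 7 endothelial markers to 48.3 and 31.2 against 57.1 and 48.9. No marker of these lists was higher. Of those tested, 1 of 6 stem cell and 1 of 5 fibroblast and pericyte markers were lower. For macrophages and leukocytes it was 3 of 6, and for endothelium 0 of 7, against 7.41% of all genes tested. None of the macrophage and leukocyte calls was made by DESeq2 or without the block. Col1a2, a fibroblast collagen, was the lower one with most UMIs, at 39.1 and 47.7 against 63.9 and 85.4 (-0.78 ± 0.12, adjusted p = 2.02e-06). Of 4 lactotrope, 5 gonadotrope, 2 thyrotrope and 2 corticotrope markers tested, none was higher and Cga, Lhb and Tshb were lower, of which Cga and Tshb had entered the rule. None of these 3 was called by DESeq2 or without the block (Lhb, adjusted p = 0.191 and 0.259). Prl, at 7390 and 6847 against 8271 and 9030, did not pass (-0.28 ± 0.08, adjusted p = 0.201), but was called lower in 6 of the alternatives (0.000904 by DESeq2). Prl had also entered the rule. The median barcode had 0.229% and 0.259% of all its UMIs from Prl in the top 10%, against 0.223% and 0.247% in the lower 50%. These shares count Gh, which was a smaller part of the top 10%, whereas the summed levels leave Gh out. The medians and the sums are thus on unlike bases, and their directions cannot be compared. Erythrocyte markers summed to 1553 and 456 against 1336 and 1612, so the libraries disagreed. Of the top 10%, 2.82% and 1.69% were among the barcodes with the highest doublet scores, against 4.56% and 5.31% of the lower 50%. Median mitochondrial shares were 2.05% and 1.93% against 1.83% and 1.89%, and median gene numbers 1917 and 2007.5 against 2127 and 2194. The part of these differences in the results was not tested beyond the bands within depth classes and the exclusions given at the end.

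Barcodes outside the somatotrope rule reached the same scores. Of the other barcodes that passed the gene and mitochondrial limits, 208 of 2954 in library 1 (7.04%) and 226 of 3521 in library 2 (6.42%) were at or above the lowest score of the top 10%. Their median score was 0.231% and 0.301%. The score leaves out Gh alone, so RNA of other hormones stays in the total for these barcodes. Scores inside and outside the rule are therefore not on a like base. The libraries held 70813117 and 78861988 UMIs, and the summed top bands 1636633 and 1763574 UMIs without Gh and the ranking genes, against 8956769 and 9752826 in the lower bands. A total of 54 barcode sequences occurred in both libraries, 4 of them in the top 10%.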

How the data were processed

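Single-cell RNA was counted as UMIs per gene and barcode by the authors, who deposited 1 matrix of raw counts for 28693 genes and 13663 barcodes. Cell Ranger, STAR and mm10 are named per the submitters' processing notes, with versions not given in the sources used here. The number at the end of a barcode gave its library. The bands were set as in the report, and the members and gene lists were chosen with earlier results of these data known. Counts were summed over 3 bands and 2 libraries and fitted with edgeR 4.0.16 in R 4.3.3 (robust quasi-likelihood, TMM, filterByExpr on band), with library as a block because both bands came from the same pool. Levels are in CPM of TMM-scaled totals, and errors of log2 fold changes are SE. Named genes passed an adjusted p of 0.05 in the same direction in both libraries with at least 50 CPM in the higher band, ranked by log2 fold change (15 highest, 10 lowest, leaving out predicted and ribosomal genes), plus list members. On simulated counts the fit recovered 95% of 100 genes changed 2-fold and 52% of 100 changed by 0.5 on the log2 scale, and called 8 unchanged genes. The simulation gave all genes the same biological variation and both libraries the same baseline, and changed only genes above a minimum expected count. It therefore cannot give the recovery or the false calls for rarer genes or for genes that vary more between pools. Doublet scores came from Scrublet in scanpy 1.11.5, with the highest 7.6% left out as an alternative, and DESeq2 1.42.0 was another. Cells are not replicates, and n is 2 pools. Some list genes are not reported here by name.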

Additional observations from a re-analysis of the deposited data

How the results depend on the processing

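The fit without the library block called 995 genes (695 higher, 300 lower) and DESeq2 897 (668 and 229), against 2238, 1285 and 953. The higher calls shared with the 1285 were 693 and 665. Genes called lower were 1748 without TMM factors, and 590 with the lowest 10% as the lower band. With no filter on low counts the split was 1135 higher and 1175 lower. Genes at least 1.5-fold lower in both libraries numbered 40, and 116 with the top 5%, 13 with the top 20%, 66 with the lowest 10%, 26 within depth bins, 19 when ranked by the 5 immediate early genes and 10 with Gh in the totals, where 102 were higher against 184. Read in 1 library alone they ranged from 86 to 146, since only 1 library then has to pass. The count with Gh in the totals used TMM factors, and its limit of 50 CPM was set on totals that include Gh. It is therefore not on a like base with the 40 and 184. The cause was not tested for the others. In barcodes chosen by the 3 heat shock genes, Fos was at 4.57 (adjusted p = 0.0595) and Egr1 at 3.99 (0.0878) without the replicate block, and Fosb passed within depth bins (3.49, adjusted p = 0.0008), without the highest doublet scores (3.64, 0.0269) and without the block (3.47, 0.0482). The stem cell marker Cyp2f2 turned from -1.79 to 0.40 when ranked by the immediate early genes. Of 140 genes followed, 30 calls were lost without the block, 21 with DESeq2 and 16 with the lowest 10%, and none reversed in these 3. Leaving out a library gives values with no test. With 2 pools and 2 residual degrees of freedom, small changes of rare genes could be missed.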

Other observations

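Of 82 ribosomal protein genes 8 were higher (9.76%) and 13 lower (15.9%), with a median log2 fold change of -0.02, against 9.99% and 7.41% of all genes tested. Of 13 mitochondrially encoded genes 2 were higher (15.4%) and 5 lower (38.5%). These counts were 1 and 3 by DESeq2 and without the block. The gene mt-Co1 was at 9509 and 9040 CPM against 7185 and 7433 (0.34 ± 0.02, adjusted p = 1.18e-14), and mt-Nd1 at 3285 and 3315 against 4018 and 4232 (-0.32 ± 0.03, adjusted p = 2.37e-13). Of 7 nuclear long noncoding RNAs 4 were higher (57.1%), but 2 by DESeq2 and 1 without the block. Among the 4 was the paraspeckle RNA Neat1, at 65.6 and 90.6 against 23.2 and 28.8 (1.59 ± 0.12, adjusted p = 5.57e-14). Tests are those of the report, by edgeR.

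Of 14 p53 target and apoptosis genes 5 were higher (35.7%, against 9.99% of all genes) and none lower. Cdkn1a, the cyclin-dependent kinase inhibitor p21, was at 192 and 240 CPM against 36.7 and 32.0 (2.66 ± 0.11, adjusted p = 1.17e-13), while the p53 targets Mdm2, Ccng1 and Bax had log2 changes of 0.20, -0.07 and -0.12 that did not pass. Of 9 glucocorticoid targets 4 were higher (44.4%). Sgk1 was at 52.95 and 47.1 against 20.01 and 15.04 (1.52 ± 0.15, adjusted p = 6.91e-11), and Fkbp5 at 41.0 and 59.6 against 55.6 and 53.8 did not pass (-0.12 ± 0.13, adjusted p = 0.614).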
